A study of Homo sapiens with 16 samples.

Results

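The comparison described here is sgYES1 against sgNTS in SUM159PT, a triple-negative breast cancer cell line, and it uses 8 of the 16 RNA-seq samples of the study. All 8 are cells of the genotype given as WT. The 16 samples form 4 groups of 4, since guides of the same names were also given to MDA-MB-231, another triple-negative line. The 4 sgYES1 libraries come from cells that received a guide RNA against the kinase gene YES1, and the 4 sgNTS libraries from cells that received a non-targeting guide. SUM159PT cells were plated in Ham/F12 medium and transfected the next day with Lipofectamine2000, so every group, controls included, carries the lipid transfection and a guide. Medium was added at 6 h and replaced at 24 h, and RNA was collected at 48 h. The guide sequence, the nuclease or repressor acting with it, and the share of cells that took it up are not given in the sources used here. Cells were not cloned or selected as far as the labels say, so each library may mix affected and unaffected cells, and fewer cells of one kind cannot be told apart from less RNA per cell. The 4 libraries of a group are described as technical replicates, so the p-values measure only the spread between these libraries.

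YES1 is a non-receptor tyrosine kinase of the Src family, anchored at the inner face of the plasma membrane, where it passes on signals from growth factor receptors, integrins and cell contacts. It overlaps in function with its relatives SRC and FYN, and it is known for amplification and for links to YAP signaling in several carcinomas. The study's title concerns mitotic fidelity and the response to taxanes, and the comparison asks how the transcriptome of SUM159PT stood after the YES1 guide. Stress programs appear throughout the results: the heat shock response raises chaperones when proteins misfold, and the integrated stress response raises amino acid genes through the factor ATF4 when translation initiation is curbed.

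Library totals lay between 14352042 and 20884267 counts, and mitochondrially encoded genes took 3.42% to 3.72% of counts. In the principal components of log2 CPM (counts per 1e6 counts, scaled by the trimmed mean of M-values), the first component held 50.8% of the variance and separated the guides with no overlap. The second held 10.1%, and 1 control library, sgNTS replicate 2, stood at its end with a score of -21.0, where the other 7 libraries lay between -8.11 and 14.3. That library lay nearer to the sgYES1 libraries for heat shock and stress genes and farther from them for inflammatory genes, so the values without it are given where they matter. The markers of a mesenchymal line were all measured, 11 of 11, and 7 were called lower (63.6%, against 19.7% of all genes tested) and 1 higher in sgYES1 (median -0.23), with VIM at 1672 CPM in sgNTS and 1445 CPM in sgYES1. Of the luminal defining markers, ESR1, PGR, EPCAM and CDH1 were below the filter on low counts. Of 15 leukocyte markers 1 passed that filter, CD163 at 1.46 and 3.11 CPM, and of 9 endothelial markers 3 did.

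YES1 itself read 97.7, 93.7, 90.4 and 89.3 CPM in the 4 sgNTS libraries and 40.1, 39.9, 38.97 and 38.3 CPM in the 4 sgYES1 libraries. Every sgYES1 library was below every sgNTS library, and the spread within each group was small beside the gap. The means were 92.8 ± 3.78 and 39.3 ± 0.869 CPM (SD, n = 4 libraries each), a log2 fold change of -1.24 (SE 0.05; edgeR quasi-likelihood test, adjusted p = 1.65e-13); the level was 2.36-fold lower. A two-sided exact permutation test of the log2 CPM gave p = 0.0286, the smallest value that the 70 splits of 4 against 4 allow. In the deposited hg38 table the gene spans 721588 to 812546 on chromosome 18 and is read from the minus strand. The other Src-family kinases measured were not called: SRC stood at 85.5 ± 2.44 CPM in sgNTS and 84.1 ± 3.41 CPM in sgYES1, and the log2 fold changes of SRC, FYN and LYN were -0.02, 0.18 and 0.14; FYN was called without sgNTS replicate 3 only (edgeR, adjusted p = 0.01004). Among the regulators, PTPRA, a phosphatase that can activate Src kinases, fell by 0.23 on the log2 scale. CSK, the kinase that inhibits the family, rose by 0.10 (edgeR, adjusted p = 0.046), a call that was lost in 8 of 16 alternatives, among them each fit without 1 of sgNTS 1, 2 and 4 or of sgYES1 2, 3 and 4 (adjusted p without sgNTS replicate 2 = 0.0991).

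Some genes on the same chromosome arm as YES1 were also lower, and others were level. The list for the same arm of chromosome 18 had 14 measured genes. Of these, 10 were called lower, the target YES1 among them (71.4%, against 19.7% of all genes tested), and 0 higher. The median was -0.24. ENOSF1, which codes for a mitochondrial enzyme and overlaps the thymidylate synthase gene TYMS, read 58.1, 57.1, 60.2 and 55.2 CPM in sgNTS and 38.6, 39.7, 37.7 and 39.1 CPM in sgYES1, with no overlap between the groups and a log2 fold change of -0.57 (SE 0.05). TYMS fell by 0.21, and its antisense gene TYMSOS by 1.19 at 2.99 to 1.31 CPM. MYL12A, a myosin light chain gene, fell by 0.42, LPIN2 by 0.31 and METTL4 by 0.44. THOC1 and USP14 on the same arm were not called, with log2 fold changes of -0.03 and 0.01. Reads of TYMS, TYMSOS and ENOSF1 may be shared, because these genes overlap and strand use in counting is not given. The cause of the lower values on this arm was not tested.

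**Figure D1:**
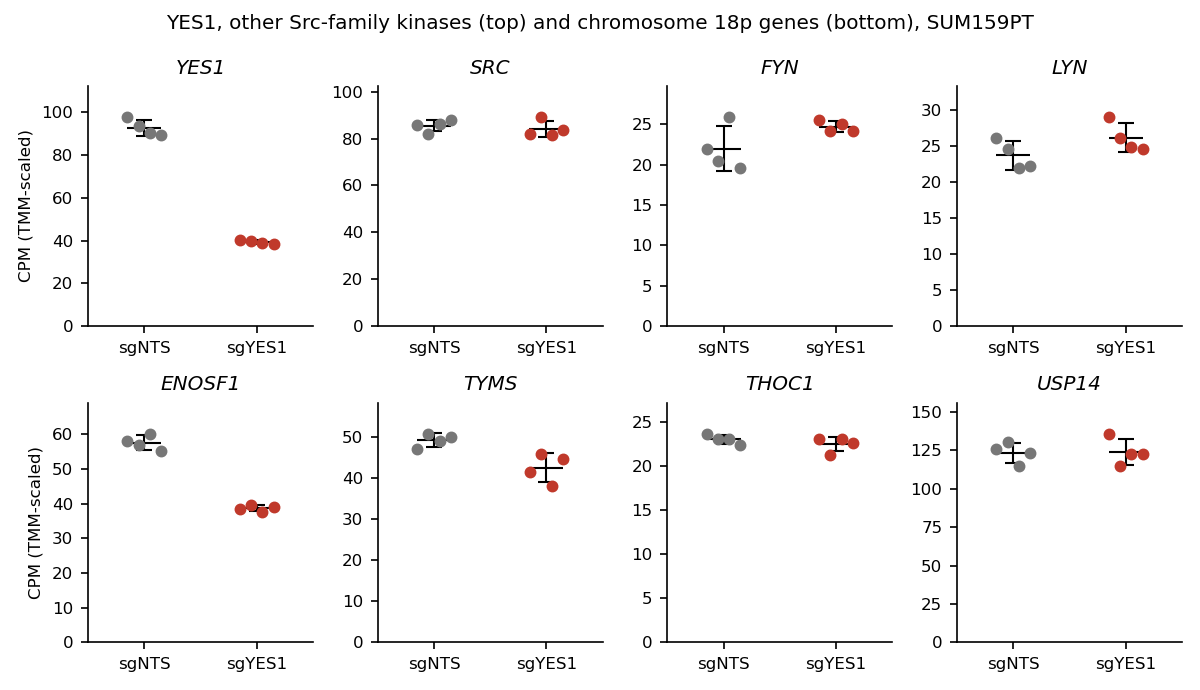
CPM of YES1 and 3 relatives (top) and of 4 other genes of the short arm of chromosome 18 (bottom) in each SUM159PT library; points are libraries, and bars show the mean and SD of 4. YES1 falls from a mean of 92.8 to 39.3 CPM and ENOSF1 from 57.7 to 38.8 CPM with no overlap, while SRC stays between 81.7 and 89.1 CPM.

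Changes were many and mostly small. Of 14479 genes tested, 5701 passed an adjusted p of 0.05 (edgeR), which is 39.4%, with 2842 higher (19.6%) and 2859 lower (19.7%) in sgYES1. The 4 libraries of one guide did not overlap those of the other in 5109 genes (35.3%). The median log2 fold change over all genes tested was -0.01. At 1.5-fold or more, 683 genes were called higher and 371 lower, and at 2-fold or more 296 and 86. The larger changes lay mostly in weakly expressed genes: of the genes called higher at 2-fold or more, 108 had a mean under 1 CPM, 160 between 1 and 10 CPM, 24 between 10 and 100 CPM and 4 above 100 CPM. The 7 genes above 100 CPM that fell by 2-fold or more stand against those 4.

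Among well measured coding genes, the highest log2 fold change belonged to ARC, a neuronal immediate-early gene. It read 2.33, 2.22, 2.11 and 2.51 CPM in sgNTS and 13.8, 14.9, 17.7 and 14.00 CPM in sgYES1, a log2 fold change of 2.70 (SE 0.13). HSPA1B and HSPA1A came next, then RRAD, a small GTPase, at 2.32, then the serum amyloid gene SAA2 (2.18) and the prostaglandin E synthase gene PTGES (2.10). At the other end stood CHAC1, a glutathione-degrading enzyme, at -2.27, the zinc finger factor gene EGR1, the asparagine synthetase gene ASNS at -1.99 and the mTORC1 inhibitor gene DDIT4 at -1.99. By absolute level, the largest gain was in HSPA8, followed by the mitochondrial rRNA gene MT-RNR2 and SOD2, and the largest loss was in the elongation factor gene EEF1A1, from 10283 ± 127 to 8609.9 ± 368 CPM. IRX2, a homeobox gene at 5831 CPM in sgNTS, had the loss that ranked after it and fell by 1.20-fold with libraries that overlapped.

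**Figure D2:**
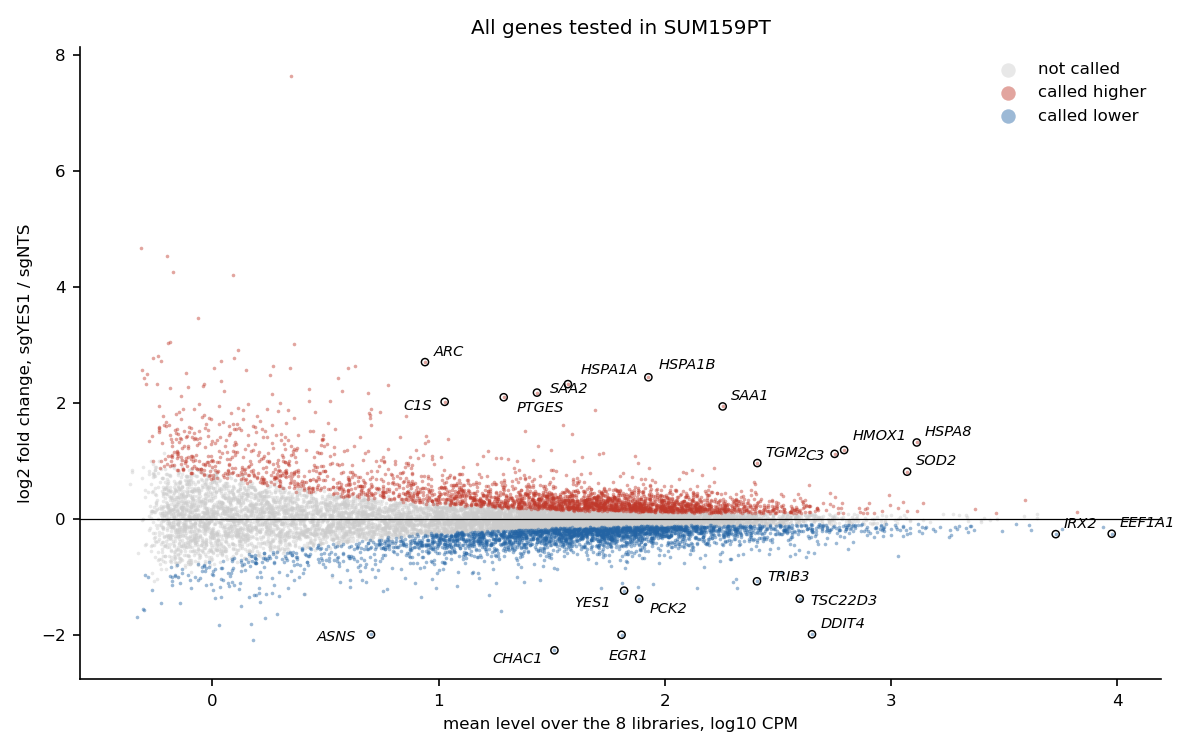
Log2 fold change of sgYES1 over sgNTS against the mean level over the 8 libraries (log10 CPM), 1 point a gene, red for called higher and blue for called lower. The labelled genes include ARC at 2.70, HSPA1B at 2.44 and CHAC1 at -2.27, while HSPA8 and DDIT4 lie among the few changes over 2-fold at high level.

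Heat shock protein genes rose, most of all the inducible members of the 70 kDa family. These chaperones bind exposed hydrophobic stretches of unfolded proteins and release them in cycles driven by ATP. HSPA1B, a stress-inducible member, read 20.5, 43.6, 16.9 and 23.5 CPM in sgNTS and 129, 146, 157 and 140.5 CPM in sgYES1. The sgNTS replicate 2 library was the highest of the controls, at 43.6 CPM, and still far below the lowest sgYES1 library. The log2 fold change was 2.44 (SE 0.16; edgeR, adjusted p = 1.58e-10), a 5.44-fold rise, and 2.80 without that library (6.97-fold). Its near-identical neighbour HSPA1A read 7.32, 21.4, 8.93 and 11.6 CPM against 64.1, 61.4, 67.9 and 55.6 CPM, a log2 fold change of 2.33 (SE 0.17). Reads of the pair can be assigned to either copy, so the split between them is uncertain. HSPA8, the constitutive cytosolic member, had the highest level of the 70 kDa members per gene length (153 CPM per kb in sgNTS, ahead of HSPA9 at 82.5) and read 557, 1078, 597 and 741 CPM in sgNTS and 1932, 1805, 1868 and 1811 CPM in sgYES1. All sgYES1 libraries were above all controls, with sgNTS replicate 2 again the highest control. Its rise was 2.49-fold (log2 fold change 1.32, SE 0.12; 2.94-fold without that library). HSPA6, a strictly inducible member, rose by 2.57 at a low level, 0.396 to 2.43 CPM.

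Over the list of 70 and 90 kDa proteins, 11 of 17 measured genes were called higher (64.7%, against 19.6% of all genes tested) and 3 lower, with a median of 0.34. HSPH1, a nucleotide exchange factor for the family, rose by 0.40, and the testis-type HSPA2 and HSPA1L rose by 1.55 and 1.77 at 1.86 and 0.932 CPM in sgYES1. HSPA13, the mitochondrial TRAP1 and HSPA12A fell by 0.39, 0.19 and 0.45. HSP90AA1, the inducible 90 kDa gene, was not called at 2084 ± 104 against 2184 ± 98.4 CPM, and HSP90AB1 rose by 0.11. HSP90AA1 was called without sgNTS replicate 2 (edgeR, adjusted p = 0.025), and HSP90AB1 was not called without sgNTS replicate 1 (edgeR, adjusted p = 0.0536). HSF1, the factor that drives these genes, was level at 177 ± 7.10 and 176 ± 8.83 CPM (log2 fold change -0.01, not called).

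Partner proteins moved in part. Of 32 J-domain proteins, which deliver clients to the 70 kDa chaperones, 10 were called higher and 6 lower (median 0.07). These are 31.25% and 18.75%, against 19.6% and 19.7% of all genes tested. DNAJB1 read 105, 114, 102 and 113 CPM in sgNTS and 180.5, 185, 181 and 186 CPM in sgYES1, and DNAJA1 107, 131, 111 and 115 against 216, 202, 228 and 207 CPM. Both rose in every sgYES1 library above every control, by 0.75 and 0.88 on the log2 scale. Of 30 heat shock factors, small heat shock proteins and co-chaperones, 13 were higher (43.3%) and 1 lower (3.3%), with a median of 0.04. The small heat shock protein gene CRYAB rose by 2.03 at 1.31 to 5.29 CPM, HSPB8 by 0.50, the co-chaperone genes BAG3 and CHORDC1 by 0.31 and 0.38, and FKBP5, which is also a glucocorticoid target, was the member that fell (-0.40). In the endoplasmic reticulum, the main chaperone HSPA5 rose by 0.44 and DNAJB9 by 0.89, while XBP1 and HERPUD1 fell by 0.62 and 0.57. That list had 11 higher (44%) and 6 lower of 25. The share lower was 24%, near the 19.7% of all genes tested. Proteasome subunits had 17 of 31 higher (54.8%, against 19.6% of all genes tested) and 0 lower, all by little (median 0.13, PSMD12 0.33).

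The promoters of 3 of these genes are shown for the heat shock factor's recognition letters, which lie in capitals. The motif searched was GAANNTTC or TTCNNGAA (both arrangements are their own reverse complements), in the 300 bases from 250 before to 50 after the start; only the 250 upstream bases are printed, 5′ to 3′ on the gene's strand, from the RefSeq promoter table for GRCh38.p14. HSPA1B lies at chr6:31827488-31827737, plus strand, HSPA8 at chr11:123062137-123062386, minus strand, and CHORDC1 at chr11:90223050-90223299, minus strand.
HSPA1B: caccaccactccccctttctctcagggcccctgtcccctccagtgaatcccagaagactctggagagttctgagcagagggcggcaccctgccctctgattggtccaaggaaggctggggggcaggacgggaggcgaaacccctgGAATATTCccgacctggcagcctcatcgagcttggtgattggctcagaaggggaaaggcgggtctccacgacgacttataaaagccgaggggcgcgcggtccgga
HSPA8: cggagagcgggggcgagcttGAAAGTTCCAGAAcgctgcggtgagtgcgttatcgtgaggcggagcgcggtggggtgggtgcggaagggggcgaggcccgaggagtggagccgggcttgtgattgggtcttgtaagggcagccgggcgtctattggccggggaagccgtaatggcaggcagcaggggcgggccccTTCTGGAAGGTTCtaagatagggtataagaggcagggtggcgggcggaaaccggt
CHORDC1: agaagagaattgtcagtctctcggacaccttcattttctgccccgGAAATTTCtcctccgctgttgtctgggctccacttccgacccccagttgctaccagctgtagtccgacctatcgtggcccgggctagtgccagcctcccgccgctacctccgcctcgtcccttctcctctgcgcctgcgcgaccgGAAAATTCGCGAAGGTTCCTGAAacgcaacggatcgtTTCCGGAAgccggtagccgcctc
HSPA1B held 1 match, starting 105 bases before the start, HSPA8 held 4 in 2 overlapping pairs, and CHORDC1 held 6, of which 4 overlap in a chain. The motif was in 13.69% of all 27305 promoters of the table and in 9.74% of the 10078 promoters matched to tested genes. In the 70 and 90 kDa list it was in 6 of the 15 matched promoters. These were 5 of the 9 whose gene rose, 0 of the 3 whose gene fell and 1 of the 3 not called. The windows of HSPA1A and HSPA1L, which both rose, overlap on opposite strands and hold the same match. Of the J-domain promoters 3 of 29 held the motif. Among genes called at 2-fold or more it was in 13.21% of those higher and 13.79% of those lower. DNAJB1, which rose, held no match in this window, and the match count did not order the rises: CHORDC1 rose by 0.38 and HSPA1B by 2.44.

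The integrated stress response moved the other way. CHAC1, a target of ATF4 and CHOP, read 68.9, 31.8, 60.1 and 54.4 CPM in sgNTS and 8.63, 11.8, 12.3 and 12.01 CPM in sgYES1. The groups did not overlap, and sgNTS replicate 2 was the lowest control. The gene fell by 4.82-fold (log2 fold change -2.27, SE 0.16; edgeR, adjusted p = 1.23e-09). DDIT4, which restrains mTORC1, read 815, 556, 750.5 and 736 CPM against 161, 188, 164 and 207 CPM and fell by 3.97-fold (log2 fold change -1.99, SE 0.09). ATF4, the factor at the centre of the response, read 539, 444, 542 and 529 CPM against 328, 320.1, 327 and 325 CPM. The sgYES1 libraries agreed within a few CPM of each other, and all lay below the controls (log2 fold change -0.66, SE 0.05). Its targets TRIB3, SESN2 and DDIT3 (CHOP) fell by 1.08, 1.11 and 0.83, and its partner gene CEBPG by 0.68. In sgNTS replicate 2 these genes were low as well: SESN2 read 106, 52.8, 104 and 90.5 CPM across the controls and 39.2, 41.7, 43.5 and 39.2 CPM in sgYES1, and TRIB3 403, 226, 430.4 and 327 against 159, 171, 164 and 164 CPM. Without that library the log2 fold changes were -2.45 for CHAC1, -1.29 for SESN2, -1.23 for TRIB3 and -2.09 for DDIT4.

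Of 27 measured genes of the list, 12 were called lower (44.4%, against 19.7% of all genes) and 3 higher, with a median of -0.23. The 3 that rose were ATF5, an ATF4 relative under similar translational control (0.84), NDRG1 (0.50) and the initiation factor gene EIF2S1 (0.18). ATF3, another stress factor, was not called at 22.8 ± 4.32 against 24.1 ± 2.73 CPM.

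Several amino acid genes that ATF4 is known to drive also fell, and others did not pass the test, such as the transporter subunit gene SLC3A2 (0.12, called higher with no filter, without sgNTS replicate 3 or without sgYES1 replicate 4; edgeR, adjusted p = 0.0483, 0.0339 and 0.0307). PHGDH, the first enzyme of serine synthesis, read 135, 103, 128 and 122 CPM in sgNTS and 51.8, 56.7, 51.8 and 62.7 CPM in sgYES1, with no overlap and a log2 fold change of -1.13 (SE 0.07). PSAT1, the enzyme after it, fell by 1.04, the mitochondrial carboxykinase PCK2 by 1.38, the transsulfuration enzyme CTH by 1.31 and the alanine transaminase GPT2 by 1.17. ASNS fell by 1.99 at a low level, 7.999 to 2.05 CPM, and its reads may be shared with a pseudogene. The list for amino acid and one-carbon synthesis had 15 lower (50%, against 19.7% of all genes tested) and 3 higher of 30 (median -0.15). Those that rose included ASS1 (0.24) and PYCR3 (0.18). Amino acid transporters were mixed, with 10 lower (41.7%) and 7 higher (29.2%, against 19.6% of all genes tested) of 24. SLC7A5, the large neutral amino acid carrier, read 1435, 1082, 1395 and 1331 CPM against 847, 880.5, 845 and 799 CPM, and the cystine carrier SLC7A11 fell by 0.84 and the glycine carrier SLC6A9 by 1.09. SLC43A2 and the lysosomal SLC38A7 rose by 1.01 and 0.69.

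Cytosolic aminoacyl-tRNA synthetases, which load amino acids onto tRNAs, had 13 of 20 lower and 3 higher (median -0.22). The share lower was 65.0%, against 19.7% of all genes tested. CARS read 166, 128, 165 and 153 CPM in sgNTS and 87.3, 87.9, 87.5 and 95.6 CPM in sgYES1 and fell by 0.77, GARS by 0.62 and AARS by 0.56. RARS, HARS and FARSA rose by 0.40, 0.30 and 0.29. Mitochondrial synthetases, coded by separate genes, had 4 higher (23.5%) and 2 lower (11.8%) of 17 (median 0.07). The share higher was near the 19.6% of all genes tested. Of the 6 calls in that list, IARS2 was lower by 0.19 and AARS2 higher by 0.27.

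The upstream bases of CHAC1 and ASNS are shown for the amino acid response element TGATGNAA, searched on both strands and set in capitals. CHAC1 lies at chr15:40953221-40953470, plus strand and ASNS at chr7:97872409-97872658, minus strand, again from RefSeq on GRCh38.p14.
CHAC1: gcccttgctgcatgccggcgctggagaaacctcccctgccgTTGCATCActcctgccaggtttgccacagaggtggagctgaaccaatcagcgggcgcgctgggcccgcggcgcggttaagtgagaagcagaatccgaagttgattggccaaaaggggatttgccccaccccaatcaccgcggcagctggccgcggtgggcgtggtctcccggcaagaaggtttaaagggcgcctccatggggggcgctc
ASNS: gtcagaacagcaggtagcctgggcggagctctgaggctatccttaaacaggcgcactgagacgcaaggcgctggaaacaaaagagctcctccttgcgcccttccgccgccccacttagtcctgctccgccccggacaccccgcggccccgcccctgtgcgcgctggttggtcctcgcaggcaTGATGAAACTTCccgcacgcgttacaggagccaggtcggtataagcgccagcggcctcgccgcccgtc
The CHAC1 match lies on the opposite strand and starts 209 bases before the start of the gene, and the ASNS match starts 68 bases before it. In ASNS the capitals run on because a heat shock motif, starting 64 bases before the start, overlaps the element. The element was in 3.67% of all promoters and in 1.69% of those of tested genes. It was in 3 of 24 matched promoters of the stress response list, 1 of the 11 whose gene fell and 2 of the 11 not called. In the amino acid synthesis list it was in 4 of 20, 3 of the 11 whose gene fell and 1 of the 8 not called. In the transporter list it was in 4 of 20. These were 1 of the 8 whose gene fell, 1 of the 7 whose gene rose and 2 of the 5 not called. PSAT1 and TRIB3, which fell, held no match in this window, and only 2 of the 20 synthetases had a promoter in the table.

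Genes driven by glucocorticoid receptor and FOXO factors formed a further group of falls. TSC22D3, a glucocorticoid-induced leucine zipper gene, read 620.2, 464, 621 and 575 CPM in sgNTS and 194, 215, 210.3 and 259 CPM in sgYES1, with no overlap (log2 fold change -1.38, SE 0.08). TXNIP, which binds thioredoxin and limits glucose uptake, read 238, 131, 215 and 189.8 against 86.8, 79.1, 81.6 and 91.3 CPM and fell by 1.19. Of 23 measured genes 14 were lower (60.9%, against 19.7% of all genes tested) and 0 higher (median -0.27). With library totals, with the replicate block, or without sgNTS replicate 2 or sgYES1 replicate 1, 1 was higher. Those that fell included KLF9 (-0.60), FKBP5 (-0.40), KLF15 (-0.63) and the receptor gene NR3C1 itself (-0.42). SGK1, a further target, was not called (0.16).

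Early response genes split. EGR1 read 153, 46.4, 128 and 84.7 CPM in sgNTS and 29.5, 25.5, 25.3 and 22.3 CPM in sgYES1. The controls ranged widely, with sgNTS replicate 2 lowest, and none overlapped with sgYES1; the mean went from 103 ± 47.3 to 25.6 ± 2.93 CPM, and without that library the log2 fold change was -2.24. FOSB rose by 1.19, EGR2 by 1.53 at 0.868 CPM in sgYES1, KLF2 by 0.70 and FOS by 0.46, while JUND fell by 0.52 and FOSL1 by 0.49, and JUN was not called (-0.13) except without sgNTS replicate 2 (edgeR, adjusted p = 0.0109), without sgYES1 replicate 3 or with no filter. The list of 27 had 8 higher and 8 lower, 29.6% each, against 19.6% and 19.7% of all genes tested. Without sgNTS replicate 2, 13 were lower. Feedback genes of ERK signaling had 11 lower (50%) and 6 higher (27.3%) of 22 (median -0.13). The activity of that pathway was not measured. PHLDA1 read 82.3, 46.5, 91.4 and 72.3 CPM against 33.9, 30.1, 34.96 and 28.05 CPM and fell by 1.20, the phosphatase gene DUSP5 by 0.72, the factor gene ETV5 by 0.65 and the Sprouty gene SPRY2 by 0.63. DUSP2, DUSP4 and DUSP7 rose by 0.84, 0.27 and 0.24. ERRFI1, a feedback inhibitor of the EGF receptor, fell from 289 ± 58.5 to 126 ± 8.44 CPM, the receptor gene EGFR by 0.35 and the ligand gene NRG1 by 1.02.

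Acute-phase and complement genes split, and several of them rose strongly. SAA1, a serum amyloid gene induced by cytokines, read 75.4, 67.8, 77.6 and 77.3 CPM in sgNTS and 293, 274, 265 and 312 CPM in sgYES1, a 3.84-fold rise with narrow groups far apart (log2 fold change 1.94, SE 0.06; edgeR, adjusted p = 1.74e-16). C3, the central complement protein, read 366, 333, 356 and 364 CPM against 769, 787, 725 and 805 CPM and rose by 1.12. The complement protease genes C1S and C1R rose by 2.02 and 1.90 at 17.1 and 7.93 CPM in sgYES1, and SOD2, the mitochondrial superoxide dismutase, by 0.81. Of 14 measured genes 9 were higher (64.3%, against 19.6% of all genes tested) and 5 lower (35.7%, against 19.7%), with a median of 0.82. The 5 that fell included regulators of complement, CD55 (-0.25) and CD46 (-0.12, with an adjusted p of 0.0458 by edgeR and a call lost in 13 of 16 alternatives), and 3 were lower without any 1 of sgNTS replicates 1 to 3 or sgYES1 replicates 1 to 3 and 2 without sgNTS replicate 4.

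NF-kB genes rose without exception among those called, 14 of 21 higher and 0 lower (median 0.29), with 1 lower when sgNTS replicate 2 was left out. The share higher was 66.7%, against 19.6% of all genes tested, and 19.7% of all genes were lower. The adhesion receptor gene ICAM1 read 33.2, 27.5, 35.6 and 32.1 CPM in sgNTS and 72.95, 72.04, 75.5 and 59.2 CPM in sgYES1 and rose by 1.13. TRAF1, a signaling adaptor, read 1.68, 0.660, 1.48 and 1.02 CPM against 7.04, 7.50, 7.32 and 7.63 CPM, a log2 fold change of 2.63 at low level. The feedback inhibitor gene TNFAIP3 rose by 0.81 and NFKBIA by 0.24 (DESeq2, adjusted p = 0.0796), while NFKB1 was not called (-0.02). Cytokine genes were weaker and more variable. CSF3 read 3.11, 2.28, 5.42 and 4.01 CPM against 11.1, 8.62, 13.1 and 6.51 CPM and rose by 1.41. IL6 read 10.1, 5.22, 14.6 and 11.6 CPM in sgNTS and 18.9, 14.4, 14.5 and 11.03 CPM in sgYES1; the groups overlapped, and its call (log2 fold change 0.51, edgeR adjusted p = 0.036) was lost without sgNTS replicate 2, the lowest control (adjusted p = 0.0962), and without any 1 of sgNTS replicate 1 and sgYES1 replicates 1 to 3. CXCL3 was called (edgeR, adjusted p = 0.0209) and lost the call without sgNTS replicate 2 (adjusted p = 0.0505), without sgNTS replicate 1 or without sgYES1 replicate 1, and CXCL8 was not called at 99.5 ± 38.7 against 117 ± 22.05 CPM, except without sgNTS replicate 3 (edgeR, adjusted p = 0.0261) or with no filter. In all, 10 of 15 interleukin and colony-stimulating factor genes were higher (66.7%) and 0 lower. Of 7 chemokine genes 2 were higher (28.6%, against 19.6% of all genes tested) and 0 lower. Over the alternatives 1 to 8 chemokine genes were higher (8 where more weakly expressed members were tested).

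Interferon-stimulated genes, which answer viral or self nucleic acid, had 18 higher (38.3%, against 19.6% of all genes tested) and 1 lower of 47 (median 0.27). The larger rises were at low level: OASL read 0.842, 1.38, 0.703 and 1.40 CPM in sgNTS and 5.21, 7.57, 6.32 and 5.30 CPM in sgYES1, and IFIT3 and IFIT2 rose by 1.55 and 1.90 to 5.21 and 2.76 CPM. ZC3HAV1, an antiviral RNA-binding protein, was better expressed and rose from 47.1 ± 8.07 to 100.3 ± 6.39 CPM. Class I antigen presentation had 9 higher (47.4%) and 2 lower (10.5%, against 19.7% of all genes tested) of 19, with TAP1 at 0.34.

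Several enzymes of lipid mediators and redox metabolism rose beside these. PTGES, the inducible prostaglandin E synthase, read 6.73, 6.60, 8.51 and 7.54 CPM against 31.8, 30.7, 36.1 and 27.3 CPM and rose by 2.10. The rest of its list was largely level, with 4 of 11 higher in all (36.4%, against 19.6% of all genes tested). HMOX1, the heme oxygenase gene, read 358, 386, 387 and 383 CPM in sgNTS and 818, 889, 999 and 742 CPM in sgYES1, a 2.28-fold rise. AKR1C1, an aldo-keto reductase whose reads may be shared with AKR1C2, rose by 1.20. The NRF2 list as a whole was mixed, 11 higher (39.3%) and 7 lower (25%, near the 19.7% of all genes tested) of 28 (median 0.06). GCLM was at 0.23 and NFE2L2 at -0.24, and FTL was not called at 2934 ± 60.4 against 2928 ± 125 CPM. TGM2, a transglutaminase of the matrix, rose from 174 ± 9.24 to 339 ± 11.2 CPM. Hypoxia-inducible genes had 10 higher (40%) and 6 lower (24%, near the share of all genes) of 25, and 10 lower without sgYES1 replicate 1. Among them, ANGPTL4 and ADM rose by 1.62 and 1.51, while VEGFA fell by 0.54. ID2, an inhibitor of helix-loop-helix factors, rose from 2.21 ± 0.302 to 7.71 ± 1.03 CPM, and ID1 and ID3 by 0.42 and 0.38.

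**Figure D3:**
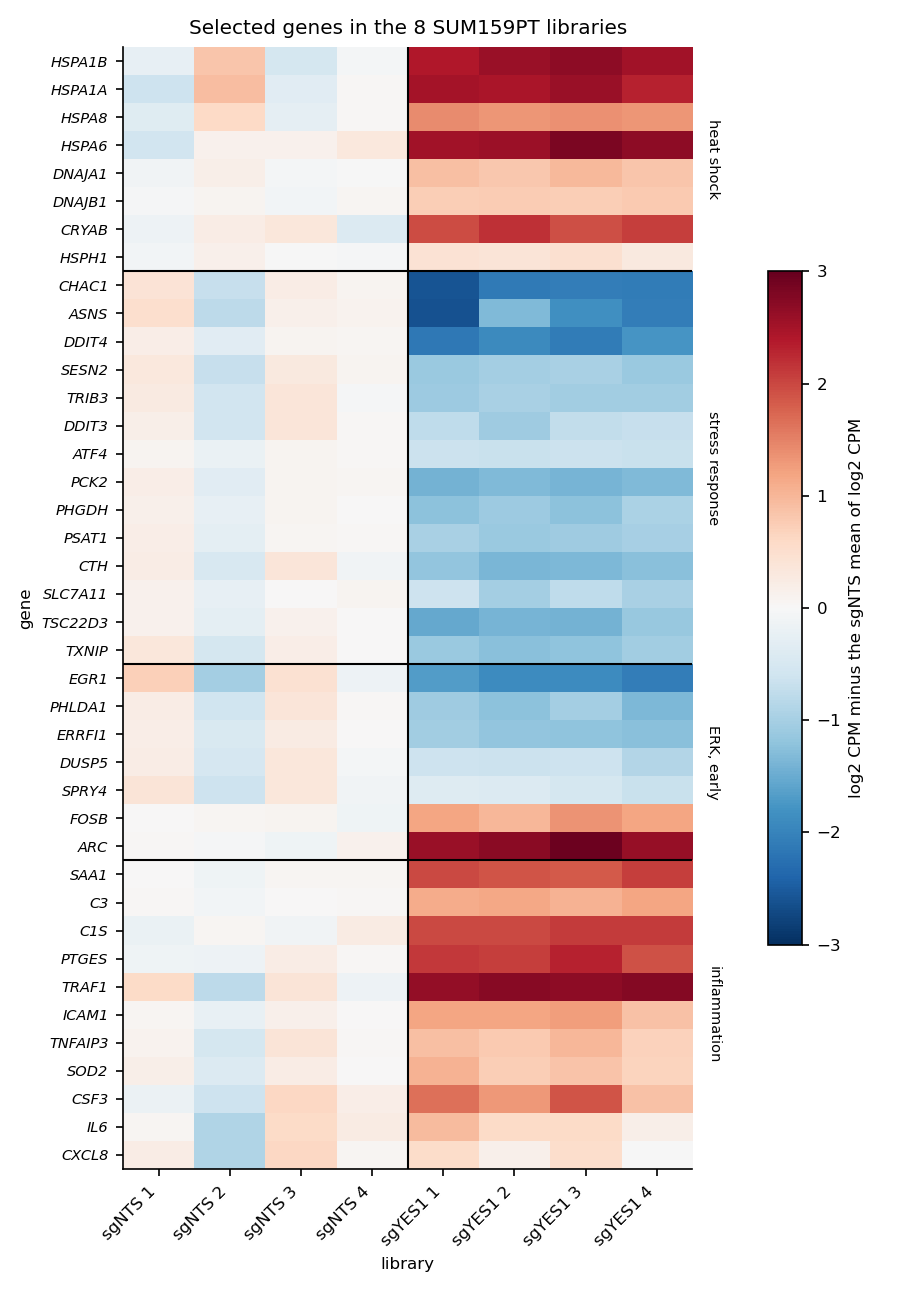
Log2 CPM of 40 genes in each SUM159PT library, relative to the mean of the 4 sgNTS libraries (colour), in 4 blocks of genes separated by lines. In the library sgNTS 2, HSPA1B, HSPA1A and HSPA8 are above the other controls, CHAC1 and EGR1 are below them, and IL6 and CXCL8 are below every other library.

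The library sgNTS replicate 2 can be placed by the mean log2 level of each list, set to 0 over the controls. For the 70 and 90 kDa heat shock proteins it scored 0.17, the other controls -0.18 to 0.02 and the sgYES1 libraries 0.73 to 0.77. For the integrated stress response it scored -0.28, against 0.00 to 0.16 in the other controls and -0.41 to -0.34 in sgYES1. For NF-kB genes it scored -0.26, against -0.01 to 0.21 and 0.38 to 0.53. Its YES1 level was 93.7 CPM, within the other controls' range of 89.3 to 97.7 CPM. With it left out, 5638 genes were called in all.

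Genes of the translation machinery moved in opposite directions by small steps. Of 78 cytosolic ribosomal protein genes 55 were lower (70.5%, against 19.7% of all genes tested) and 1 higher, with a median of -0.13. RPL3 read 1996, 1933, 2057 and 2055 CPM in sgNTS and 1548, 1597, 1554 and 1744 CPM in sgYES1, a fall of 0.32 with no overlap. Translation factors whose messages carry a terminal oligopyrimidine start had 11 lower (57.9%) and 1 higher of 19. EEF2 fell by 0.18 and PABPC1 by 0.25. Host genes of small nucleolar RNAs had 9 lower (45%) and 1 higher of 20. SNHG8 read 90.9, 70.6, 95.8 and 85.9 CPM against 45.8, 48.5, 49.3 and 46.3 CPM. Nucleolar factors that build ribosomes had 22 higher (61.1%, against 19.6% of all genes tested) and 2 lower of 36 (median 0.20). BYSL was at 89.1 ± 2.02 and 122 ± 4.000 CPM. MYC, a driver of that program, fell by 0.27 with overlapping libraries. Nuclear genes of oxidative phosphorylation had 13 lower (32.5%) and 0 higher of 40.

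**Figure D4:**
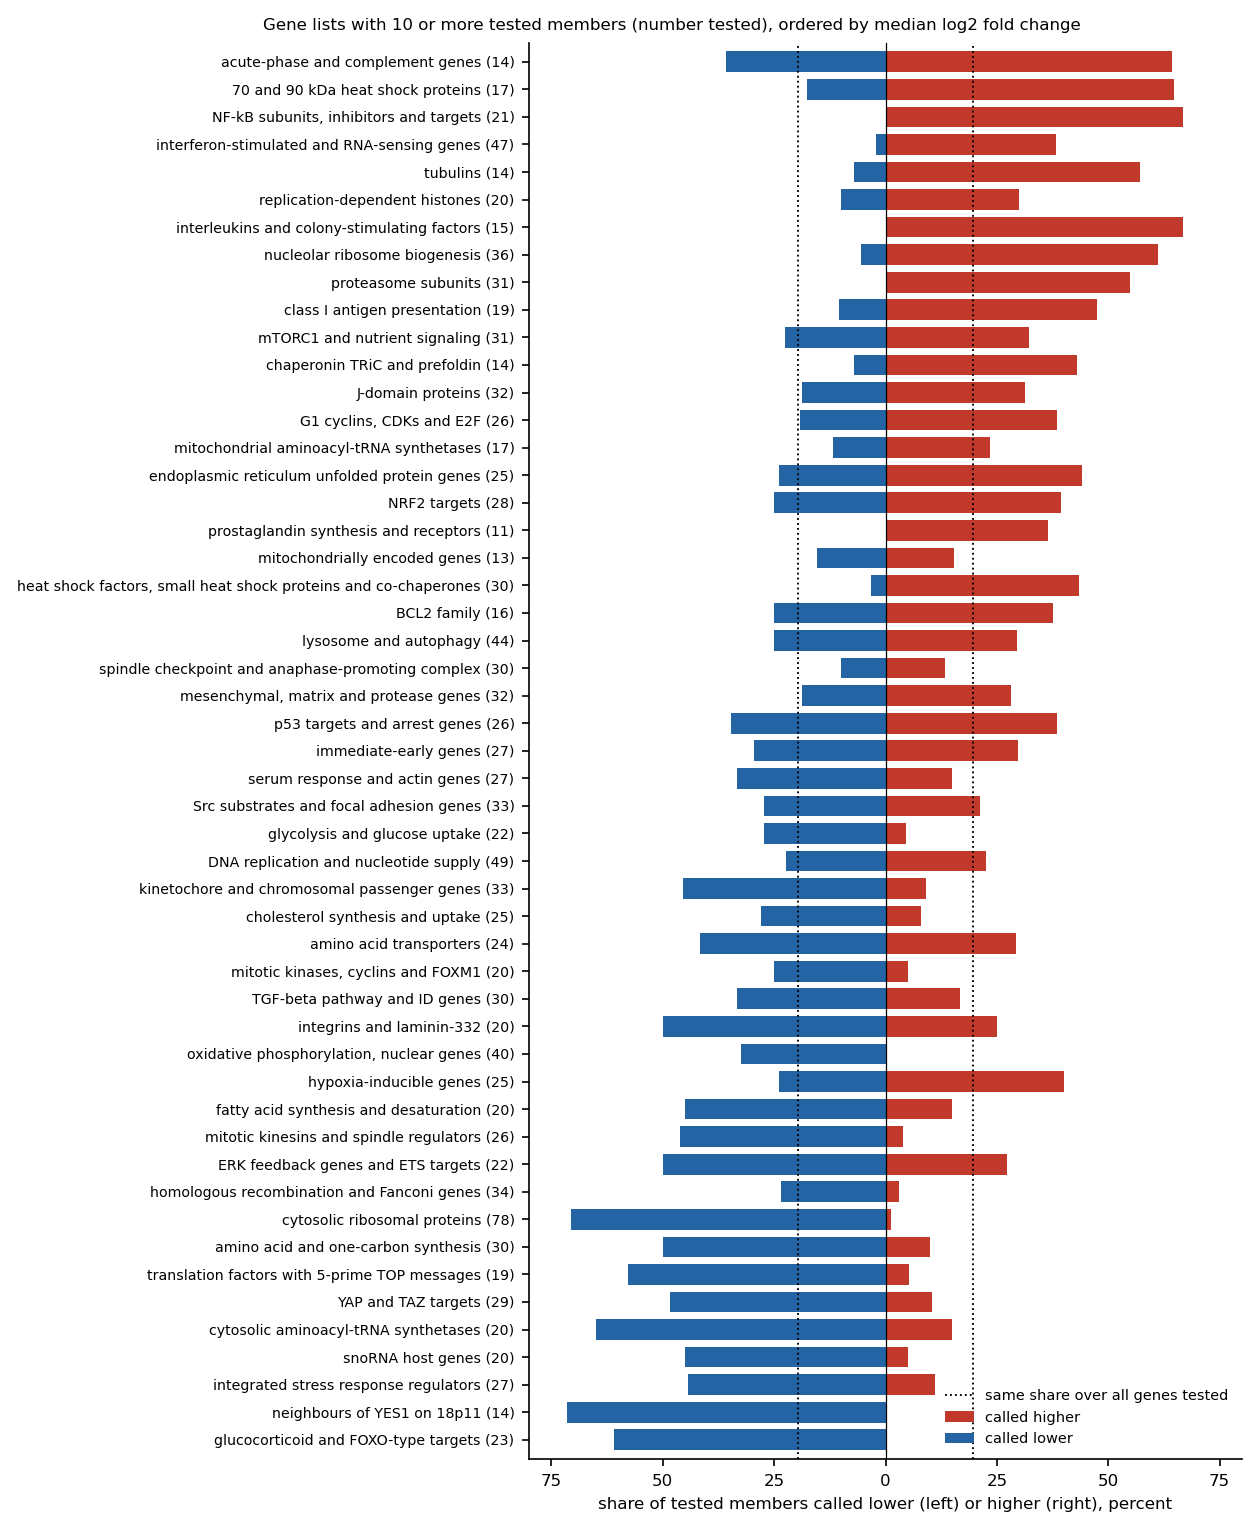
Share of tested members called lower (blue, left) or higher (red, right) in each gene list with 10 or more tested members, ordered by median log2 fold change; dotted lines mark the shares over all genes tested, 19.7% lower and 19.6% higher. Ribosomal proteins (70.5% lower) and NF-kB genes (66.7% higher) reach far past the dotted lines.

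Mitotic genes bear on the study's title. Kinetochore and kinesin genes were called lower more often than all genes tested, by small steps. Among mitotic kinases and cyclins, some were called and others were not. Of 20 mitotic kinases, cyclins and FOXM1, 5 were lower and 1 higher (median -0.07). The share lower was 25%, near the 19.7% of all genes tested, and the share higher was 5%, against 19.6%. CDK1, CCNB1, PLK1 and AURKA were not called, at 0.02, -0.02, -0.02 and 0.05. Kinetochore and chromosomal passenger genes had 15 lower (45.5%, against 19.7% of all genes tested) and 3 higher of 33 (median -0.05), with CENPF at -0.26 and CENPA at -0.38. Mitotic kinesins and spindle regulators had 12 lower (46.2%) and 1 higher of 26 (median -0.12); KIF15, a spindle motor, read 38.6 ± 1.36 CPM and 28.1 ± 1.34 CPM. Without sgNTS replicate 2 the number lower in that list was 7. Tubulins, the target of taxanes, had 8 higher (57.1%, against 19.6% of all genes tested) and 1 lower of 14. TUBB4B read 731, 985, 779 and 848 CPM in sgNTS and 1070.5, 1163, 1127 and 1105 CPM in sgYES1, and TUBA4A and TUBB2A rose by 0.51 and 0.48, while TUBB (0.08) was called only with library totals or without sgNTS replicate 2 (edgeR, adjusted p = 0.0149). The centriolar TUBE1 fell by 1.00. Tubulin copies share reads, so single members are uncertain.

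Arrest and survival genes gave no common direction. CDKN1A, the p21 inhibitor, rose from 60.2 ± 4.26 to 96.5 ± 5.54 CPM, CCND1 by 0.29 and CCNE1 by 0.63, and GADD45A fell from 425 ± 87.7 to 225 ± 21.2 CPM. The p53 list had 10 higher (38.5%) and 9 lower (34.6%) of 26, against 19.6% and 19.7% of all genes tested. In the BCL2 family, 6 were higher (37.5%) and 4 lower (25%) of 16. BCL2L11, a pro-death member, rose by 0.78, MCL1 and BCL2, which protect, fell by 0.42 and 0.36, and BCL2L1 was level (-0.03). Drug exporters had 2 higher (ABCG2 0.47, ABCC2 0.43) and 2 lower of 8. That is 25% each way, near the shares of all genes tested.

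YAP and TAZ targets, which respond to cell shape and to Src-family kinases, leaned lower, 14 of 29 with 3 higher (median -0.21). The share lower was 48.3%, against 19.7% of all genes tested. The receptor kinase gene AXL read 428, 424, 443 and 444 CPM in sgNTS and 269, 285, 271 and 297 CPM in sgYES1, with no overlap, a fall of 0.63. CYR61 fell by 0.61 and YAP1 by 0.28, while CTGF was not called (-0.12). CAV1, a Src substrate that shapes caveolae, fell from 215 ± 13.5 to 144 ± 3.29 CPM. In that group 5 of 7 genes were lower (71.4%), and 3 without sgNTS replicate 2 or sgYES1 replicate 3. Src substrates and focal adhesion genes had 9 lower and 7 higher of 33 (median -0.03), at a share near that of all genes. Integrins and laminin-332 had 10 lower (50%) and 5 higher (25%, near the 19.6% of all genes tested) of 20. Those lower included ITGB1 (-0.31) and ITGA3 (-0.34), and those higher included LAMB3 (1.04).

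Set beside MDA-MB-231, which shares no library with SUM159PT, the effect of the guide differed in 4085 of 16640 genes (24.5%; interaction of line and guide, edgeR, adjusted p under 0.05), 2111 with the more positive and 1974 with the more negative value in SUM159PT. Of 13390 genes tested in both lines, 2255 were called in both in one direction and 593 in both in opposite directions. For YES1 the log2 fold changes were -1.24 and -1.34, a difference of 0.09 with a 95% interval of -0.04 to 0.21 (edgeR, adjusted p = 0.308). Stress genes carried some of the widest gaps. CHAC1 was -2.27 in SUM159PT and 1.08 in MDA-MB-231, a difference of -3.35 (edgeR, adjusted p = 3.56e-10). SESN2 was -1.11 against 1.69, DDIT3 -0.83 against 0.91, TRIB3 -1.08 against 0.60 and ATF4 -0.66 against 0.24, with differences of -2.81, -1.75, -1.69 and -0.91. All 5 fell in SUM159PT and had positive values in MDA-MB-231. DDIT4 fell in SUM159PT and stood at 0.14 in the other line (difference -2.14; edgeR, adjusted p = 9.59e-12).

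Heat shock genes differed with the opposite sign. HSPA1B was 2.44 in SUM159PT and 0.26 in MDA-MB-231 (difference 2.17; edgeR, adjusted p = 1.33e-08), HSPA8 1.32 against -0.17 (difference 1.47) and DNAJB1 0.75 against -0.09 (difference 0.84). In the 70 and 90 kDa list the difference was called with the higher value in SUM159PT for 9 of 17 genes and with the lower for 2. Over all 16640 genes tested for it, these numbers were 2111 and 1974. IFIT3, TGM2 and ID2 had the more positive value in SUM159PT as well, with differences of 1.87, 1.12 and 1.90. Cytokine genes rose less in SUM159PT: IL6 differed by -2.01 and CSF3 by -2.07, and the light ferritin chain FTL by -0.997, being level in SUM159PT and 0.98 in MDA-MB-231. EGR1, TSC22D3 and GADD45A differed by -2.63, -1.98 and -1.91. ARC and SAA2 were called higher in both lines, and the differences of -0.51 (95% interval -0.95 to -0.06) and 0.20 (95% interval -0.13 to 0.54) did not pass the test.

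**Figure D5:**
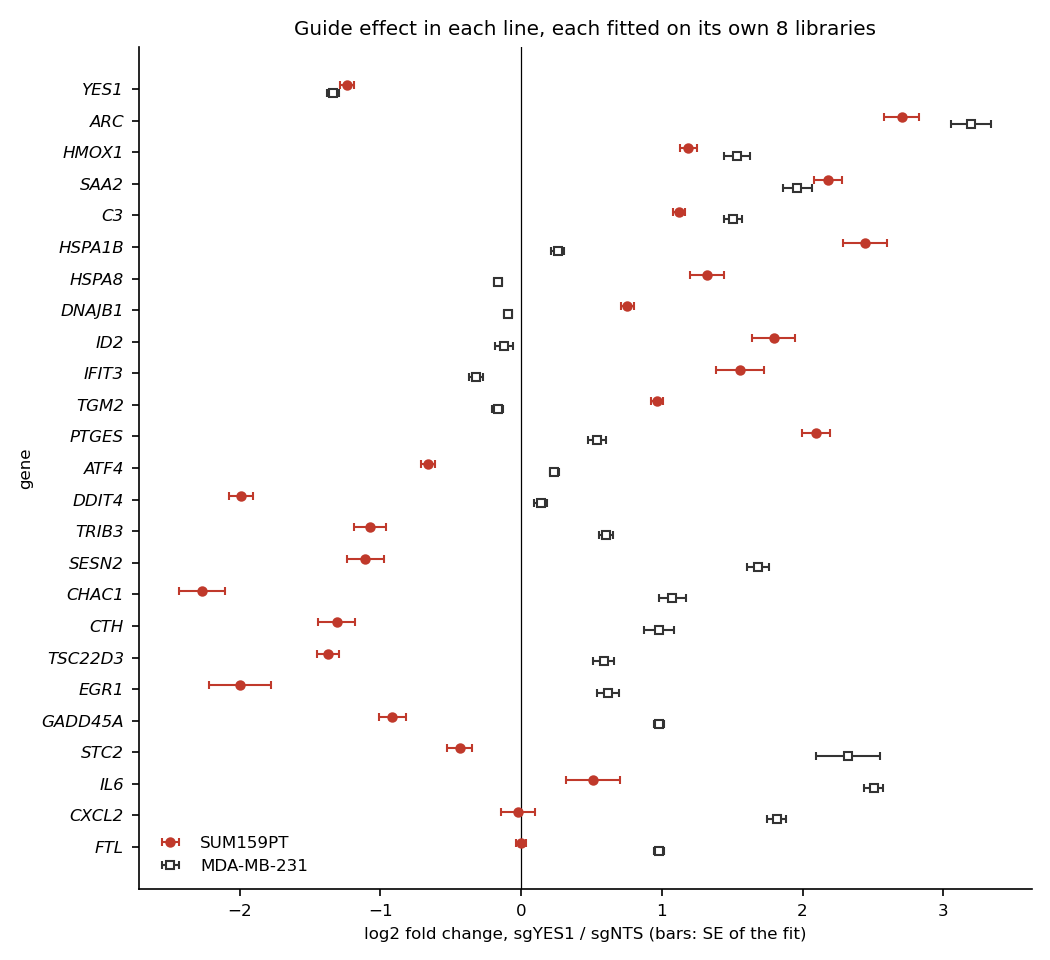
Log2 fold change of sgYES1 over sgNTS for 25 genes in SUM159PT (filled circles) and MDA-MB-231 (open squares), with bars of 1 SE from each line's own fit. YES1 lies at -1.24 and -1.34 and ARC at 2.70 and 3.20, CHAC1 and SESN2 lie on opposite sides of 0, and HSPA1B lies at 2.44 against 0.26.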

How the data were processed

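Poly-A RNA of 16 samples was sequenced; the 8 SUM159PT samples were compared as 4 sgYES1 against 4 sgNTS, by title. The values are whole-number counts per gene as deposited by the authors, made with HISAT2 2.0.5 and featureCounts 1.5.0-p3 on hg38, per the submitters' processing notes; how multi-mapped reads and strand were handled was not given in the sources used here. Gene lengths in the deposited tables, another measure, were used only for levels per length.

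Counts were analysed in R 4.3.3 with edgeR 4.0.16 (filterByExpr with a minimum count of 10 and total of 15, TMM scaling, quasi-likelihood F-test, Benjamini-Hochberg adjustment over 14479 genes, threshold 0.05). Standard errors are the log2 fold change divided by the root of F. Levels are CPM. The difference between lines is the interaction of line and guide over 16 libraries. The steps were tested on simulated data. No 2 libraries agreed within sampling noise (chi-square per degree of freedom at least 2.33 within groups).

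Genes were named by rule: YES1; among called genes whose groups do not overlap, 15 coding genes (mean 5 CPM or more) and 5 long noncoding genes (1 CPM or more) from each end of the fold changes; the 10 largest gains and losses in CPM; the 6 smallest p in each list; the 8 genes that differ most clearly between the lines; and members needed to describe a list. Some genes that meet the rule are not reported here. The members and lists were chosen with earlier results of these data known. Alternatives were other scalings, filters, DESeq2 1.42.0, a fit on 16 libraries, a replicate block and leaving out each library. Promoters came from RefSeq (GRCh38.p14).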

Additional observations from a re-analysis of the deposited data

Results flagged for a closer look

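Within groups of 4 libraries, 11 of the 288 groups examined held 1 library far from the other 3, and chance alone sets apart about 1 in 20 such groups. Of these, 5 were in sgNTS replicate 2. That library read 444 CPM for ATF4, a transcription factor of the amino acid response, where the other sgNTS libraries read 529 to 542, and 235 CPM for CAV1, where they read 206 to 209. It also read 207 CPM for CENPF against 180 to 183, 250.2 CPM for SREBF2 against 272 to 274, and 2239 CPM for HSP90AA1 against 2020 to 2052. In sgNTS replicate 1, HMOX1 read 358 CPM against 383 to 387. In sgYES1 replicate 4, ASS1 read 227 CPM against 179 to 186 in the other sgYES1 libraries, CARS 95.6 against 87.3 to 87.9, and STARD4 14.3 against 12.3 to 12.6. CHAC1 read 8.63 CPM in sgYES1 replicate 1 against 11.8 to 12.3, and SLC38A7 read 44.5 CPM in sgYES1 replicate 2 against 48.9 to 49.7.

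The guide effect differed between the lines for 18 of the 21 genes whose difference was given (edgeR's quasi-likelihood test of the interaction). Over all genes tested the share was 24.5%, and some of the 21 were named because their difference was clear. Values below 0 mean a lower log2 fold change in SUM159PT than in MDA-MB-231. Among genes of the amino acid and stress responses it was -3.35 for CHAC1, -2.81 for SESN2, -2.14 for DDIT4, -1.75 for DDIT3, -1.69 for TRIB3, -0.91 for ATF4 and -1.91 for GADD45A. Among immediate-early and cytokine genes it was -2.63 for EGR1, -2.07 for CSF3 and -2.01 for IL6. Heat shock genes had differences above 0, with 2.17 for HSPA1B, 1.47 for HSPA8 and 0.84 for DNAJB1. The remaining differences were 1.90 for ID2, 1.87 for IFIT3, 1.12 for TGM2, -1.98 for TSC22D3 and -0.997 for FTL. The cause of these differences was not tested.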

How the results depend on the processing

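The drop of YES1 and the counts of called genes kept their direction and stayed within 1.5 times under every alternative run. Calls numbered 5670 with DESeq2-type size factors, 5668 with library totals only, 5722 with upper quartile scaling, 5686 with no filter, 5583 with at least 1 CPM, 5285 with DESeq2, 5969 with all 16 libraries in the fit, and 4880 to 5638 with 1 library left out (higher 2439 to 2846, lower 2441 to 2803). YES1 lay between -1.26 and -1.21 over these. With library totals only, 56.6% of calls were higher (3206 against 2462) against 49.9% with TMM; the median of all genes moved by less than 0.1 under each scaling. A fit with the replicate number as a block called 5886 genes (2904 higher, 2982 lower) and gave YES1 -1.24. The deviations of same-numbered libraries correlated at 0.14, -0.04, 0.08 and 0.09. The libraries numbered 1 and those numbered 4 correlated best with each other. Those numbered 2 did not, and sgYES1 replicate 2 correlated best with sgNTS replicate 3, at 0.11. All these correlations were weak, and the numbers were not taken to pair the samples. The interaction called 3643 to 4365 genes over its alternatives, 3817 with the block. IL6 and CXCL3 were not called by DESeq2 (adjusted p 0.234 and 0.173). Depth limits the weakest genes, since 1 CPM is 14.4 to 20.9 counts per library.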

Other observations

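Genes of lipid synthesis were mostly lower where they were called. Of 25 tested genes of cholesterol synthesis and uptake 7 were called lower (28.0%, against 19.7% of all genes tested) and 2 higher. STARD4, a sterol carrier, fell from 21.5 ± 1.10 to 12.9 ± 0.977 CPM and the regulator SREBF2 had a log2 fold change of -0.38. Fatty acid synthesis and desaturation had 9 lower (45%) and 3 higher (15%) of 20. The desaturase gene SCD read 779, 761, 726 and 768 CPM in sgNTS and 509, 521, 486 and 603 CPM in sgYES1, with no overlap. Lysosome and autophagy genes were split, 13 higher (29.5%) and 11 lower (25%) of 44 (7 lower without sgNTS replicate 4). The proton pump subunit gene ATP6V0D1 was at 0.49. DNA replication and nucleotide supply had 11 higher (6 without sgNTS replicate 1) and 11 lower of 49, among them FEN1 at 0.47 and DTL at -0.29. That is 22.4% each way, near the shares of all genes tested, 19.6% higher and 19.7% lower. Homologous recombination and Fanconi genes had 8 lower (13 without sgYES1 replicate 1) and 1 higher of 34. The share lower was 23.5%, also near that of all genes, and BARD1 was at -0.36.

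Some very large changes lay in short RNAs of the nuclear machinery, chosen here after their values were seen. RNU5A-1, a gene for the U5 RNA of the spliceosome (chromosome 15, 65296051 to 65296166), had 0, 1, 0 and 0 counts in the 4 sgNTS libraries and 80, 77, 78 and 86 counts in the 4 sgYES1 libraries. SNORD3B-1, a copy of the U3 small nucleolar RNA (chromosome 17, 19061912 to 19062669), had 0, 0, 0 and 2 counts against 21, 17, 17 and 13. The long noncoding gene AC007952.4, on the same chromosome at 19112000 to 19112636, read 0.130, 0.180, 0.0703 and 0.0967 CPM against 1.69, 3.16, 2.36 and 2.19 CPM. In MDA-MB-231, RNU5A-1 had 3, 0, 3 and 2 counts in sgNTS and 64, 57, 74 and 83 in sgYES1. Of the 38 small noncoding genes tested in SUM159PT, 7 were called higher (18.4%, against 19.6% of all genes tested) and 1 lower (median log2 fold change 0.10), so the class as a whole was called higher about as often as other genes. The libraries were made from RNA bound to poly-T beads, and the mature U5 and U3 RNAs carry no poly-A tail. How these reads entered the sgYES1 libraries of both lines was not tested.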
